A study of Mus musculus with 30 samples.

Results

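The report covers 10 mouse genes of the germline and of meiosis, Dmrtc2, Dazl, Ddx4, Dppa3, Sycp1, Sycp3, Mael, Stra8, Tex101 and Slc25a31, in embryonic stem cell (ESC) clones. The genes were chosen by symbol, as 10 of the 18097 gene symbols on the array, and all 13 of their probes, of 25697, were read on all 30 arrays. Dmrtc2 entered the list because its fall on doxycycline withdrawal was already known from these arrays. Its withdrawal values are therefore a description without a test. The other members were also chosen with earlier results of these data known, which limits what their tests show.

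The arrays compared 5 rescue clones of Ainv15, a mouse ESC line that expresses the reverse tetracycline transactivator. The 4 targeted clones carry an shRNA against a transcript together with an shRNA-immune version of it, which is expressed as long as doxycycline (Dox, 1 μg/ml) is in the medium. Bub1b_R, Chek1_R, Ppm1g_R and Ppp2r1b_R are named after a mitotic checkpoint kinase, a DNA damage checkpoint kinase, a protein phosphatase and a phosphatase 2A scaffold subunit, and Control_R is the control clone. Each clone was sampled with Dox (+Dox) and after 5 days without it (-Dox), on 3 arrays per condition. By the study's methods 3 independent clones were made for each gene, and the labels do not say from which of them an array came. The labels describe maintenance on embryonic fibroblasts, and the study's methods place the array experiment in culture without feeders. The labels do not say that the 3 arrays of a condition were separate cultures, so the p-values measure only the spread between these arrays, which may be technical.

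Germline genes are mostly silent outside germ cells. In ESCs and somatic cells many of them are held off by DNA methylation at promoters rich in CpG and by a non-canonical Polycomb complex whose DNA-binding subunits recognize E-box and E2F motifs, while a few, such as Dppa3 and Dazl, are transcribed in naive ESC cultures. The list spans the germ cell lineage, from primordial germ cells (Dppa3, Dazl, Ddx4) through meiotic entry (Stra8), meiotic prophase (Sycp1, Sycp3, Dmrtc2) and transposon silencing (Mael) to products of the maturing testis (Tex101, Slc25a31).

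Promoter windows for 9 of the 10 genes were taken from RefSeq (GRCm38.p6), each spanning 250 bases before and 50 after a transcript start. Dppa3 had no entry, and for Dmrtc2, Ddx4 and Stra8 the start used lies inside the annotated gene. These windows held 10 to 38 CpG dinucleotides, beside a median of 7 over all 32851 windows. An E-box (CACGTG) stood in 5 of the 9 windows and in 7.15% of all windows. The E2F motif (GCGGGAA on either strand) occurred in 4 of the 9 and in 4.6% of all windows. CCAAT on either strand occurred in 7 of the 9 and in 37.4%. The E-box and E2F motifs each contain a CpG, and the shares over all windows were not matched for CpG content. The first 280 bases of the window are shown for 2 genes that were lower without Dox in every targeted clone (Dmrtc2, Dazl), for one that was detected without a called change (Ddx4) and for one detected on no array (Sycp3). Capitals mark the 3 motifs on either strand, and no 2 motifs overlapped.

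Dmrtc2, chr7:24869807-24870086, plus strand: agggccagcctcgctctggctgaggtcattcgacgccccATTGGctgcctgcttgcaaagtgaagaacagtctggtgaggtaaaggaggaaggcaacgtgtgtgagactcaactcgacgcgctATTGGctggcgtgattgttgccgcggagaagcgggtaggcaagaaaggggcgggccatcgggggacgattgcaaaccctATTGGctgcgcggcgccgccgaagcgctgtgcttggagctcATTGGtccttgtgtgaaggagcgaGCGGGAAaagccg

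Dazl, chr17:50293591-50293870, minus strand: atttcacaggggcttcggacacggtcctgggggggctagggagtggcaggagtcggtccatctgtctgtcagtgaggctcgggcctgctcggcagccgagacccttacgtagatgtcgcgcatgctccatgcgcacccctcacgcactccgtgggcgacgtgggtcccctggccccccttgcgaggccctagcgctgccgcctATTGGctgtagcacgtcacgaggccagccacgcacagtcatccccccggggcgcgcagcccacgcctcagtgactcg

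Ddx4, chr13:112652281-112652560, minus strand: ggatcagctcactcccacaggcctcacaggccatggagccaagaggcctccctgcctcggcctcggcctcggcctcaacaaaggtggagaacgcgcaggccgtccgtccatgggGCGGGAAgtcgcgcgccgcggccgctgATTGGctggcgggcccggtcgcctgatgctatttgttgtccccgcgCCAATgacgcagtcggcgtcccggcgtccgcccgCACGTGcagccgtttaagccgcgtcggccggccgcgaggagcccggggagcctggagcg

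Sycp3, chr10:88459337-88459616, plus strand: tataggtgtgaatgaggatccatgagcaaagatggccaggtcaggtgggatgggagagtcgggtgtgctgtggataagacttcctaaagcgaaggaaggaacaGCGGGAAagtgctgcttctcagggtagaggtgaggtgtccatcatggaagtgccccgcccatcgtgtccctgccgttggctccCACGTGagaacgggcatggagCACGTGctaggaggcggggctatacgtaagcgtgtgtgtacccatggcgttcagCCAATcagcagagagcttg

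Dmrtc2 carried 1 E2F motif and 4 CCAAT motifs, a number reached by 1.06% of all windows and also by the windows of Stra8 and Tex101. Dazl held 1 CCAAT motif and neither of the other 2. Ddx4 and Sycp3 both held E-box and E2F motifs, a combination found in 0.457% of all windows. These matches describe the letters of the windows and say nothing about binding.

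The study deposited a signal and a detection p-value for each probe, and a probe counted as detected on an array at a detection p under 0.05. Signals were normalized to a log2 scale, on which a difference of 1 is 2-fold, and 15151 probes detected on at least 3 arrays were tested with limma. Between 11733 and 13685 probes were detected per array. The arrays came in 2 sets of unlike brightness: the 12 arrays of Bub1b_R and Control_R had a faintest detected signal of 12.9 to 20.9, against 27.8 to 58.1 for the other 18. Bub1b_R against Control_R stays within a set of brightness. For Chek1_R, Ppm1g_R and Ppp2r1b_R the clone and the set cannot be told apart against Control_R. By their sample numbers, the Control_R arrays came from an earlier submission than the arrays of every targeted clone. Against Control_R the clone and the submission therefore cannot be told apart for any targeted clone, Bub1b_R included. The part of the submission in these differences was not tested. Changes on Dox withdrawal stay within a clone and therefore within a set. All 8 ESC markers examined, Pou5f1 and Nanog among them, were detected on all 30 arrays. Of 12 fibroblast genes examined, between 5 and 9 were detected on an array, while Col1a2, Lum and Postn were detected on none. On the probes of the targeted genes, Ppm1g was lower without Dox than with it (-1.25 on the log2 scale, limma adjusted p = 4.5e-09) and Bub1b and Ppp2r1b were not called (-0.14 and 0.20). Relative to Control_R without Dox, Ppm1g (-1.74), Bub1b (-0.67) and Chek1 (-1.07) were lower in their own clones (limma adjusted p = 5.66e-13, 1.05e-07 and 3.06e-06), and Ppp2r1b was not called (-0.25, limma adjusted p = 0.158). Chek1 was detected on 0 of 3 arrays with Dox and on 3 of 3 after withdrawal. In Chek1_R it was called higher without Dox (limma adjusted p = 0.00115), with no fold given because it was not well above background with Dox. This rise is opposite to the loss of the rescue copy that withdrawal is meant to give, and its cause was not tested. The Chek1_R samples are therefore called the arrays labelled Chek1_R. The rescue vectors of Bub1b and Chek1 lack the sequence that the shRNA targets, and whether the probes read the rescue copies is not known here.

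Of the 10 genes, 5 had a probe that entered the test. Dmrtc2 and Dppa3 were detected on 30 arrays, Dazl on 27, Ddx4 on 17 by its best probe and Tex101 on 7. Mael, Slc25a31, Sycp1 and Sycp3 were detected on 0 of 30 arrays, with either probe in the case of Slc25a31. Stra8, the retinoic acid-induced gatekeeper of meiotic entry, was detected on 1 array (Ppp2r1b_R +Dox replicate 3, signal 59.6). Its other 29 arrays were not well above background.

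**Figure D1:**
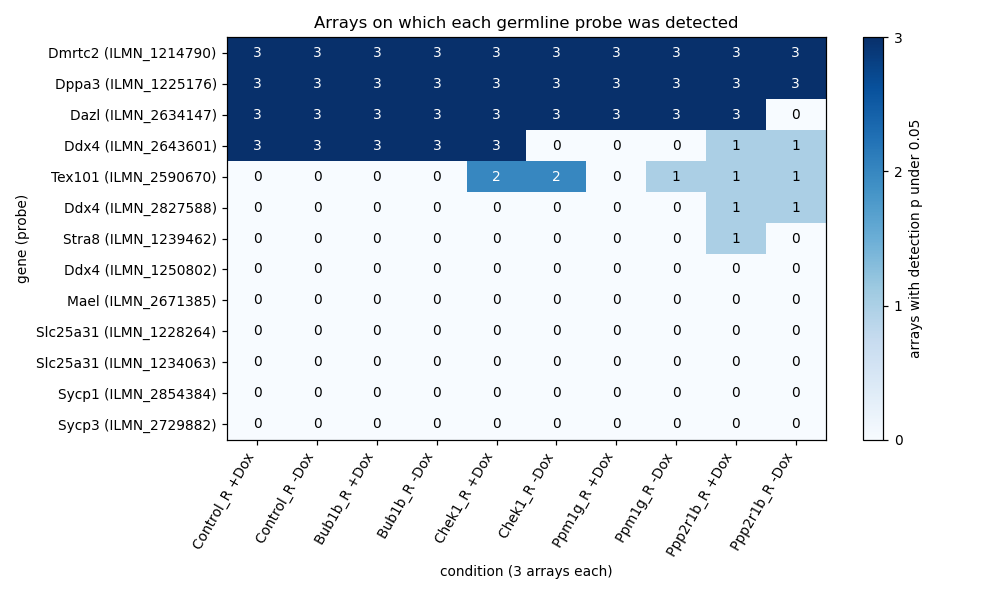
Number of arrays, of 3 in each condition, on which each of the 13 germline probes had a detection p under 0.05; rows are probes and columns are the 10 conditions. Dmrtc2 and Dppa3 filled every condition, Dazl every condition but Ppp2r1b_R -Dox, and 6 probes were at 0 throughout.

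The silent probes lay at the bottom of the signal range. Background-corrected signals were -21.3 to 14.6 for Sycp1, the transverse filament of the synaptonemal complex, and -32.2 to -0.6 for Sycp3, a component of its lateral element. For Mael, which acts in piRNA-guided transposon silencing, they were -34.5 to -4.2. The 2 probes of Slc25a31, a mitochondrial ADP/ATP carrier of male germ cells, gave -14.2 to 4.8 and -35.9 to 0. These probes were not well above background, so they carry no order among samples.

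Dmrtc2 encodes a DMRT-family transcription factor required for male meiosis. It was lower without Dox in each of the 4 targeted clones. In Bub1b_R the log2 signals were 7.40, 7.43 and 7.09 with Dox and 5.85, 5.86 and 6.22 without. The arrays labelled Chek1_R gave 8.44, 8.42 and 8.27 with Dox and 6.98, 7.03 and 6.97 without. In Ppm1g_R they were 7.57, 7.42 and 7.62 with Dox against 6.04, 6.30 and 6.39 without it. In none of these 3 clones did the conditions overlap. Ppp2r1b_R had 8.31, 8.12 and 8.13 with Dox and 7.07, 7.16 and 7.71 without, again without overlap, although replicate 3 without Dox stood closer to the arrays with Dox than the other two. Control_R gave 8.73, 8.80 and 8.58 with Dox and 8.40, 8.20 and 8.47 without.

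**Figure D2:**
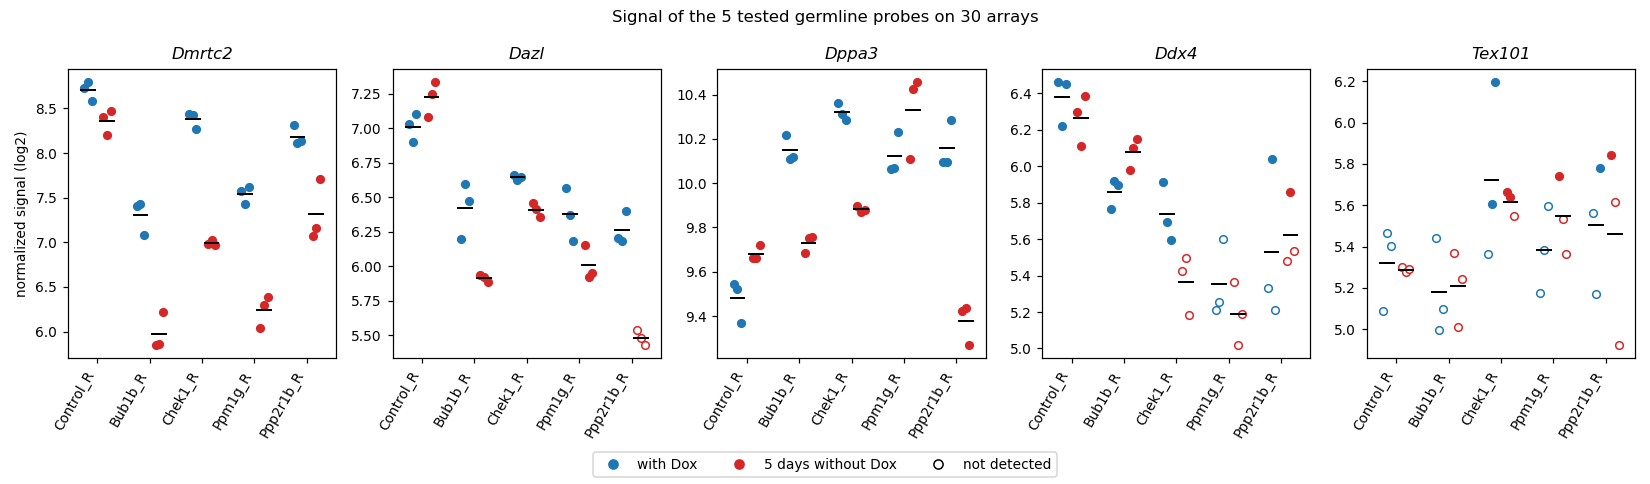
Normalized log2 signal (vertical axis) of the 5 tested germline probes on the 30 arrays, by clone, with Dox in blue and after 5 days without Dox in red. Points are arrays, black lines are means of 3 arrays and open points are arrays on which the probe was not detected. Dmrtc2 is lower without Dox in all 4 targeted clones, and Dppa3 with Dox is higher in each of them than in Control_R.

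The log2 change of Dmrtc2 on withdrawal was -1.33 in Bub1b_R, -1.30 in Ppm1g_R, -0.87 in Ppp2r1b_R and -1.39 on the arrays labelled Chek1_R (SE 0.135 each), with a mean of -1.22. In Control_R, which played no part in the choice of the gene, it was -0.35 (SE 0.135). That change did not pass the threshold (limma adjusted p = 0.127), although the -Dox array was the lower one in 9 of 9 array pairs. Minus the change in Control_R, those of Bub1b_R, Chek1_R, Ppm1g_R and Ppp2r1b_R were -0.99, -1.04, -0.95 and -0.52 (SE 0.191), given as values only.

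Levels of Dmrtc2 also differed between clones that were all kept with Dox. Relative to Control_R with Dox, the log2 difference was -1.40 in Bub1b_R, -1.17 in Ppm1g_R, -0.52 in Ppp2r1b_R and -0.33 on the arrays labelled Chek1_R (SE 0.135). Without Dox it was -2.38, -2.12, -1.04 and -1.37 in the same order. These arrays also enter the contrast for which the gene was chosen, so the differences stand as values. Ordered by condition mean, Dmrtc2 ran from 8.70 in Control_R +Dox to 5.97 in Bub1b_R -Dox. Neighbours overlapped between Chek1_R +Dox (8.38), Control_R -Dox (8.36) and Ppp2r1b_R +Dox (8.19), between Ppm1g_R +Dox (7.54), Ppp2r1b_R -Dox (7.32) and Bub1b_R +Dox (7.31), and between Ppm1g_R -Dox (6.24) and Bub1b_R -Dox.

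Dazl, an RNA-binding protein that promotes translation of germ cell mRNAs, read lower without Dox on every array of the 4 targeted clones and passed the full threshold in Ppp2r1b_R. In Ppp2r1b_R the log2 signals were 6.21, 6.19 and 6.40 with Dox and 5.53, 5.48 and 5.43 without, and the -Dox arrays were not well above background. Dazl there was at least 1.57-fold lower without Dox (limma adjusted p = 2.42e-06), a call that ended at a normalization offset of 50 in place of 16. Bub1b_R gave 6.19, 6.59 and 6.47 with Dox and 5.93, 5.92 and 5.89 without, a change of -0.50 (SE 0.097, limma adjusted p = 0.00036) that was under 1.5-fold.

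The same held in Ppm1g_R, where Dazl read 6.57, 6.37 and 6.19 with Dox and 6.16, 5.92 and 5.95 without. Its change was -0.36 (limma adjusted p = 0.00757). On the arrays labelled Chek1_R the signals were 6.66, 6.63 and 6.65 with Dox and 6.46, 6.41 and 6.36 without, a change of -0.23 (limma adjusted p = 0.0723). The conditions did not overlap in any of the 4 clones. Control_R gave 7.03, 6.90 and 7.10 with Dox and 7.08, 7.25 and 7.34 without, a change of 0.21 (limma adjusted p = 0.197) with overlapping arrays. Without Bub1b_R +Dox replicate 1 the change in Bub1b_R was -0.62 and passed. That change also passed with no background correction (-0.66) and with no fold limit, 2 of 12 other settings.

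The change of Dazl differed among the 5 clones by limma's F-test (adjusted p = 9.74e-05, a test passed by 30.6% of all tested probes). Minus the change in Control_R, the value was -0.72 in Bub1b_R (SE 0.137, limma adjusted p = 0.000966), past the threshold. Ppp2r1b_R passed too (limma adjusted p = 5.36e-05), with no value given because Dazl was not well above background there without Dox. They were -0.58 in Ppm1g_R (limma adjusted p = 0.00614) and -0.45 on the arrays labelled Chek1_R (limma adjusted p = 0.024), both under 1.5-fold. The value for Ppm1g_R lay close to that limit. It passed without Ppm1g_R +Dox replicate 3 (-0.67), without Ppm1g_R -Dox replicate 1 (-0.65) and without Control_R +Dox replicate 1 (-0.59), +Dox replicate 3 (-0.62) or -Dox replicate 1 (-0.65). Of 12 other settings of the processing or test, it passed in 3. These were no background correction (-0.72), median scaling (-0.64) and no fold limit.

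Dppa3, also known as Stella, marks primordial germ cells and protects maternal DNA methylation in the zygote. Its change on withdrawal passed the threshold in Ppp2r1b_R and was of the opposite sign in Ppm1g_R. In Ppp2r1b_R it fell from 10.10, 10.10 and 10.29 with Dox to 9.42, 9.44 and 9.27 without, a change of -0.78 (SE 0.079, limma adjusted p = 1.04e-07). In Bub1b_R the signals were 10.22, 10.11 and 10.12 with Dox and 9.69, 9.75 and 9.76 without, a change of -0.42 (limma adjusted p = 0.000301). The arrays labelled Chek1_R gave 10.36, 10.31 and 10.29 with Dox and 9.90, 9.87 and 9.88 without, a change of -0.44 (limma adjusted p = 0.000111). The latter changes were under 1.5-fold, and in these 3 clones the conditions did not overlap.

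Ppm1g_R had 10.07, 10.07 and 10.23 with Dox and 10.11, 10.42 and 10.46 without, a change of 0.21 (limma adjusted p = 0.0587) with overlapping arrays. Control_R gave 9.55, 9.52 and 9.37 with Dox and 9.66, 9.66 and 9.72 without, a change of 0.20 (limma adjusted p = 0.127) without overlap. The F-test across the 5 clones gave limma adjusted p = 4.07e-07 for Dppa3. Relative to the change in Control_R the values were -0.62 in Bub1b_R, -0.98 in Ppp2r1b_R and -0.64 on the arrays labelled Chek1_R (SE 0.111, limma adjusted p = 0.000551, 4.28e-06 and 0.000177), all past the threshold, and 0.01 in Ppm1g_R (limma adjusted p = 0.98). Without Control_R +Dox replicate 3 those of Bub1b_R (-0.56) and of the arrays labelled Chek1_R (-0.58) dropped under 1.5-fold, as did that of Bub1b_R without Bub1b_R +Dox replicate 1 (-0.58) and that of Chek1_R after median scaling (-0.56).

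Ddx4, the mouse vasa homolog, is an RNA helicase of germ granules. On its tested probe no clone passed the threshold on withdrawal. Control_R gave 6.46, 6.22 and 6.45 with Dox and 6.30, 6.11 and 6.38 without, and Bub1b_R 5.76, 5.92 and 5.90 against 5.98, 6.10 and 6.15, a change of 0.22 (limma adjusted p = 0.37). The arrays labelled Chek1_R were detected on 3 of 3 arrays with Dox (5.92, 5.70 and 5.60) and on 0 of 3 without. That difference was at least 1.13-fold and did not pass (limma adjusted p = 0.0844). Ppm1g_R was not well above background on any array, and Ppp2r1b_R was detected on 1 of 3 arrays in each condition. The other 2 Ddx4 probes were detected on 2 and 0 of 30 arrays, so the probes disagree on whether the gene is detected.

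Tex101, a glycoprotein of testicular germ cells, was detected on 4 of the 6 arrays labelled Chek1_R, 1 of Ppm1g_R and 2 of Ppp2r1b_R, and on 0 of 12 arrays of Bub1b_R and Control_R. Its highest signal was 6.20, on the arrays labelled Chek1_R with Dox. Changes on withdrawal lay between -0.11 and 0.16 (SE 0.207), less than their SE, and its lowest limma adjusted p on withdrawal was 0.638.

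**Figure D3:**
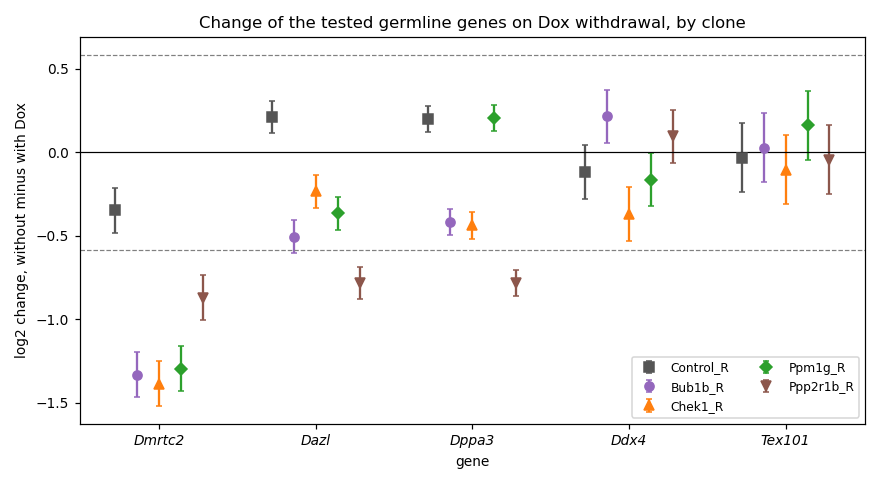
Log2 change of the 5 tested germline genes on Dox withdrawal (without minus with Dox) by clone; points are estimates, bars 1 SE and dashed lines 1.5-fold. Points that rest on a condition not well above background, such as Dazl in Ppp2r1b_R, are fitted values and not measured folds. Dmrtc2 runs from -1.39 to -0.87 in the targeted clones and lies at -0.35 in Control_R, and Dppa3 lies above 0 in Ppm1g_R and Control_R and below 0 in the other 3 clones.

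Counted over the 4 tested probes other than that of Dmrtc2, limma made 2 withdrawal calls in Ppp2r1b_R (adjusted p below 0.05 with a change of 1.5-fold or more), Dazl and Dppa3, both lower, and 0 calls in each of Bub1b_R, Chek1_R and Ppm1g_R. Over all tested probes it called 5.6% in Bub1b_R, 9.27% in Chek1_R, 4.37% in Ppm1g_R and 4.82% in Ppp2r1b_R. In the clones with 0 calls, 2, 3 and 2 of the 4 probes had an unadjusted p under 0.05, and the methods' t-test also called 0. In Control_R, with Dmrtc2 included, 0 of 5 probes were called beside 1.1% of all probes, with 3 at an unadjusted p under 0.05 and 0 by the methods' t-test. Minus the change in Control_R the calls were 2, 1, 0 and 2 of 4, all lower, beside 5.15%, 8.99%, 5.27% and 3.28% of all probes. In Ppm1g_R, where that count was 0, 1 probe had an unadjusted p under 0.05.

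Markers of the undifferentiated state and of early differentiation were read beside these changes. Of 11 tested probes of the ESC markers, 1 was called lower in Bub1b_R (Utf1, -0.63), 1 in Chek1_R (Utf1, -0.80), 0 in Ppm1g_R (5 at an unadjusted p under 0.05 in limma, 0 by the methods' t-test) and 3 in Ppp2r1b_R (Esrrb -0.83, Zfp42 -0.80 and Utf1 -0.68), and their median changes were -0.32, -0.31, -0.14 and -0.43. In Control_R 1 of 2 Sox2 probes was called higher (0.62). Of 9 tested probes of early differentiation genes, 9, 9, 7 and 3 were called higher in Bub1b_R, Chek1_R, Ppm1g_R and Ppp2r1b_R, and 1 in Control_R, beside shares of all tested probes of 5.6%, 9.27%, 4.37%, 4.82% and 1.1%. The calls in Ppp2r1b_R were T (1.90), Evx1 (1.54) and Eomes, the last not well above background in either condition, and Gsc there had a change of -0.20. The summed signal of 8 primitive streak and epiblast genes, T and Fgf5 among them, was 960 to 1148 with Dox and 5483 to 6358 without in Bub1b_R. It was 202 to 237 and 3715 to 5824 on the arrays labelled Chek1_R, and 1250 to 1827 and 2823 to 3658 in Ppm1g_R. In Ppp2r1b_R, the clone in which Dazl and Dppa3 passed, it was 356 to 539 and 975 to 1261, and Eomes, Lhx1, Mesp1 and Mixl1 remained at 0 of 3 arrays in both conditions. Control_R ran from 88.8 to 141 with Dox and from 128 to 213 without. Of 12 tested probes of 9 fibroblast genes, 3, 5, 8 and 3 were called in the 4 targeted clones. Of these calls 3, 4, 7 and 3 were higher, and the shares of all probes are those just given. The Acta2 probes were all among the calls in Ppm1g_R (0.88, 0.81, 0.81 and 0.72). In Control_R 0 of the 12 were called (4 at an unadjusted p under 0.05, 0 by the methods' t-test). With and without Dox the summed signal of the 12 fibroblast genes was 7616 to 8508 and 10244 to 11800 in Bub1b_R, 8416 to 9918 and 6579 to 10147 on the arrays labelled Chek1_R, 6389 to 8436 and 9822 to 10885 in Ppm1g_R, 3910 to 5370 and 3014 to 4235 in Ppp2r1b_R, and 3174 to 4134 and 2816 to 3566 in Control_R. The part of these lists in the germline values was not tested. In bulk RNA, fewer cells that express a gene and less RNA per cell cannot be told apart.

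Comparison with Control_R asks how a clone differs, under the same medium, from a control line whose arrays came from an earlier submission. Against Control_R, Dppa3 was called in 4 targeted clones with Dox, Dazl and Ddx4 in 3 each and Tex101 in 0. Dppa3 was higher in all 4 targeted clones with Dox, by 0.67 in Bub1b_R, 0.64 in Ppm1g_R, 0.68 in Ppp2r1b_R and 0.84 on the arrays labelled Chek1_R (SE 0.079, limma adjusted p between 7.45e-09 and 2.48e-07), with no overlap with Control_R. Without Dox only Ppm1g_R remained past the threshold (0.65, limma adjusted p = 1.35e-07), beside 0.05, 0.20 and -0.31 in Bub1b_R, the arrays labelled Chek1_R and Ppp2r1b_R. The Ppm1g_R value was 0.58, under 1.5-fold, without Ppm1g_R -Dox replicate 3. Median scaling moved the median of all probes by -0.14 for Ppp2r1b_R against Control_R in either medium and by 0.11 for Bub1b_R without Dox. Under it the Dppa3 difference of Ppp2r1b_R with Dox was 0.48, less than 1.5-fold.

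Dazl was lower than in Control_R in every targeted clone and either medium. With Dox the differences were -0.59 in Bub1b_R, -0.63 in Ppm1g_R and -0.75 in Ppp2r1b_R (SE 0.097, limma adjusted p = 2.72e-05, 4.93e-06 and 5.18e-07), all past the threshold, and -0.37 on the arrays labelled Chek1_R (limma adjusted p = 0.00318), under 1.5-fold. Without Dox they were -1.31, -1.21 and -0.81 in Bub1b_R, Ppm1g_R and the arrays labelled Chek1_R (limma adjusted p = 4.12e-11, 1.35e-10 and 1.33e-07), and in Ppp2r1b_R Dazl was at least 3.05-fold lower (limma adjusted p = 1.68e-13).

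**Figure D4:**
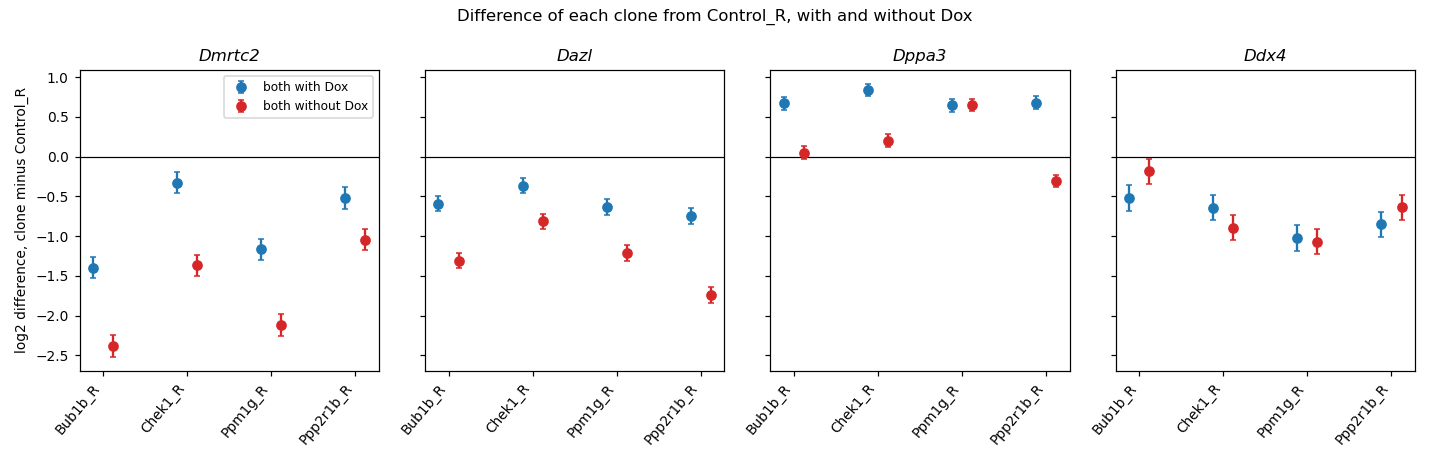
Log2 difference of each targeted clone from Control_R, both with Dox (blue) and both without (red), for Dmrtc2, Dazl, Dppa3 and Ddx4. Points are estimates and bars 1 SE. Those of Dazl in Ppp2r1b_R and Ddx4 in Chek1_R, both without Dox, and of Ddx4 in Ppm1g_R rest on arrays not well above background. Ddx4 in Ppp2r1b_R was detected on 1 of 3 arrays in each condition. Dazl lies below 0 throughout, while Dppa3 lies between 0.64 and 0.84 with Dox and between -0.31 and 0.65 without.

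Within the set that Bub1b_R shares with Control_R, the deposited signals of Dazl without Dox were 35.9, 31.6 and 35.4 against 96.4, 84.3 and 95. Across the sets they overlapped: 69.6, 110 and 81.8 on the arrays labelled Chek1_R without Dox lie around those of Control_R. The Bub1b_R call with Dox ended under median scaling (-0.52) and without Bub1b_R +Dox replicate 1 (-0.48), Control_R +Dox replicate 1 (-0.58) or Control_R +Dox replicate 3 (-0.55), and the Ppm1g_R call with Dox under median scaling (-0.51) and without Ppm1g_R +Dox replicate 3 (-0.54).

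Ddx4 was lower than in Control_R on its tested probe. In Ppp2r1b_R that probe was detected on 1 of 3 arrays with Dox and on 1 of 3 without. The differences of that clone are fitted values that rest mostly on arrays not well above background. With Dox the difference was -0.64 on the arrays labelled Chek1_R and -0.85 in Ppp2r1b_R (SE 0.160, limma adjusted p = 0.00184 and 6.84e-05), and Ppm1g_R was at least 1.71-fold lower (limma adjusted p = 6.36e-06). Without Dox it was -0.64 in Ppp2r1b_R (limma adjusted p = 0.00122), at least 1.63-fold on the arrays labelled Chek1_R (limma adjusted p = 3.73e-05) and at least 1.54-fold in Ppm1g_R (limma adjusted p = 2.91e-06). In Bub1b_R, the only targeted clone in the set of Control_R, Ddx4 was not called (-0.52 with Dox and -0.19 without, limma adjusted p = 0.0112 and 0.346).

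Deposited Ddx4 signals ranged from 14.5 to 56.8 over all arrays and from 30.9 to 48.5 in Control_R. Among the calls with Dox, that of the arrays labelled Chek1_R ended without their +Dox replicate 3 (-0.57) and under median scaling (-0.58), and that of Ppp2r1b_R under the methods' t-test (adjusted p = 0.0697). The Ppp2r1b_R call without Dox ended without Ppp2r1b_R -Dox replicate 1 (-0.57) or Control_R -Dox replicate 3 (-0.58). Without Control_R +Dox replicate 2, Bub1b_R passed with Dox (-0.60). Tex101 was called in none of these comparisons, with limma adjusted p between 0.11 and 0.799.

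Over the 4 probes other than Dmrtc2, 2 were called with Dox in Bub1b_R, 2 in Chek1_R, 3 in Ppm1g_R and 3 in Ppp2r1b_R, beside 12.7%, 17.6%, 29.1% and 28.3% of all tested probes. Without Dox the calls were 1, 2, 3 and 2 of 4, beside 22.6%, 28.8%, 33.5% and 33.7%. Of the 10 calls with Dox, median scaling left 6 and an offset of 50 left 5, and an offset of 200 left 1 of these and 0 of the 8 without Dox.

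Among the 5 tested members, Dmrtc2 and Dazl had the highest correlation over the 30 arrays (Pearson r = 0.66, Spearman rho = 0.73), and Ddx4 and Dppa3 the lowest (r = -0.53, rho = -0.50). The probes of other genes most like Dmrtc2 were those of Ell3 (r = 0.949), Got1l1 (0.945) and Pif1 (0.945), and those most like Dazl were Gcdh (0.938), Gltp (0.913) and Paip2b (0.912). For Dppa3 they were Ppm1b (0.879), Chek2 (0.801) and Ppa2 (0.798), and for Ddx4 Alg3 (0.904), Hdac5 (0.896) and Gtf3a (0.885). Tex101 had Dpysl2 (0.729), Fem1c (0.710) and Lancl1 (0.683). These are descriptions over 30 arrays that share clones and array sets.

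Other genes of the germline were taken from 4 lists, of germ cell specification, the piRNA pathway, meiosis and gamete products. Both tested Pou5f1 probes stand in the list for germ cell specification and also among the ESC markers above. These lists were drawn up with earlier results of these data known. Of 93 genes, 70 were on the array, 16 of them detected on no array, and 48 were tested with 61 probes. On withdrawal 10 of the 61 probes were called in Bub1b_R (1 higher, 9 lower), 19 in Chek1_R (3 higher, 16 lower), 7 in Ppm1g_R (2 higher, 5 lower) and 9 in Ppp2r1b_R (0 higher, 9 lower). This was 16.4%, 31.1%, 11.5% and 14.8% of the list, to be read beside the background shares on withdrawal given above. The median change was -0.28, -0.32, -0.19 and -0.38, with medians over all tested probes between -0.02 and -0.01. In Control_R 0 of 61 were called (19 at an unadjusted p under 0.05, 0 by the methods' t-test) and the median was -0.03. Of the 45 calls, 38 had the probe detected in both conditions and 1 in neither.

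**Figure D5:**
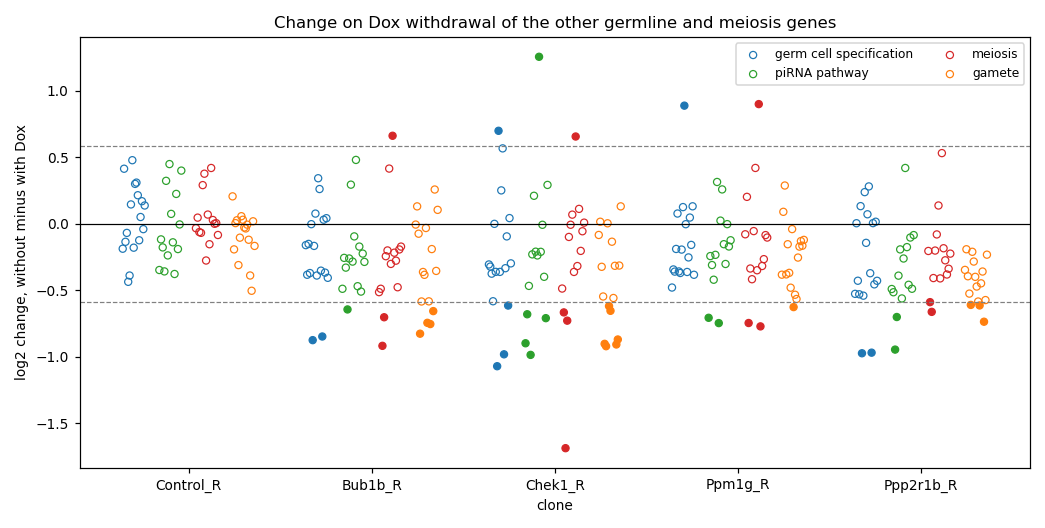
Log2 change on Dox withdrawal (without minus with Dox) of 61 tested probes of the other germline and meiosis genes, by clone and list; filled points are probes called at adjusted p under 0.05 and 1.5-fold, and dashed lines mark 1.5-fold. Most filled points lie below 0, and Control_R has none.

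The meiosis list held 14 tested probes, of which 3, 4, 3 and 2 were called in Bub1b_R, Chek1_R, Ppm1g_R and Ppp2r1b_R. These were 21.4%, 28.6%, 21.4% and 14.3% of the list, beside 5.6%, 9.27%, 4.37% and 4.82% of all tested probes. Smc1b, a meiotic cohesin subunit, fell in all 4 targeted clones, with log2 changes of -0.92, -1.69, -0.75 and -0.66 (limma adjusted p between 5.14e-15 and 5.02e-07), with -0.06 in Control_R. Rec8, the meiotic kleisin, fell in Bub1b_R (-0.70) and on the arrays labelled Chek1_R (-0.73). Spo11, which makes the DNA breaks of meiosis, was detected on 0 of 15 arrays with Dox by one probe and was higher without it, at least 1.20-fold in Bub1b_R and at least 1.23-fold in Ppm1g_R. It was also called on the arrays labelled Chek1_R, with no fold to give above the detection limit, while its second probe was not called in any clone. Tex11, a meiotic crossover factor, fell on the arrays labelled Chek1_R (-0.67). It was also called in Ppp2r1b_R, where it was not well above background in either condition, so no fold is given.

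In the piRNA list 1, 5, 2 and 2 of 14 probes were called in the same order of clones. These were 7.14%, 35.7%, 14.3% and 14.3% of the list, beside 5.6%, 9.27%, 4.37% and 4.82% of all tested probes. The share in Bub1b_R lay near that of all probes. Mov10l1, a helicase of piRNA biogenesis, fell in Bub1b_R (-0.64), in Ppp2r1b_R (-0.70) and on the arrays labelled Chek1_R (-0.98). Piwil2, a PIWI protein, fell on the arrays labelled Chek1_R (-0.90) and in Ppm1g_R (-0.71). Tex19, called Tex19.1 in current annotation, fell in Ppp2r1b_R (-0.95). Tdrd7, a Tudor protein of germ granules, moved the other way and rose on the arrays labelled Chek1_R (1.26).

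The gamete list had 4, 6, 1 and 3 of 16 probes called, all lower. These were 25%, 37.5%, 6.25% and 18.8% of the list, beside 5.6%, 9.27%, 4.37% and 4.82% of all tested probes. The share in Ppm1g_R lay near that of all probes. Tex14, a component of intercellular bridges, fell in Bub1b_R (-0.74), in Ppm1g_R (-0.63) and on the arrays labelled Chek1_R (-0.65). Tekt1, a flagellar protein, fell in Bub1b_R by both probes (-0.83 and -0.75) and in Ppp2r1b_R by one (-0.61). Sohlh1, a transcription factor of germ cell differentiation, fell on the arrays labelled Chek1_R by both probes (-0.90 and -0.91) and by one each in Bub1b_R (-0.66) and Ppp2r1b_R (-0.61). Taf7l was at least 1.53-fold lower on the arrays labelled Chek1_R.

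Of 17 probes for germ cell specification, 2, 4, 1 and 2 were called. These were 11.8%, 23.5%, 5.88% and 11.8% of the list, beside 5.6%, 9.27%, 4.37% and 4.82% of all tested probes. Here too the share in Ppm1g_R lay near that of all probes. Tcl1, an AKT coactivator that ESCs express too, fell by both probes in Bub1b_R (-0.87 and -0.85) and in Ppp2r1b_R (-0.97 by each). Ifitm1 was at least 2.05-fold lower by one probe and changed by -0.98 by another on the arrays labelled Chek1_R, while one more probe was not called. Dppa4 fell on the arrays labelled Chek1_R by 1 of 3 probes (-0.61), and Nanos3, a translational repressor of primordial germ cells, rose in Ppm1g_R (0.89).

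Genes that repress the germline programme, such as Mga, E2f6, Dnmt1 and Setdb1, contributed 25 tested probes of 17 genes. Limma called 0 of them in Bub1b_R, Chek1_R and Control_R (8, 5 and 5 at an unadjusted p under 0.05, 0 by the methods' t-test). In Ppm1g_R 1 of 2 Uhrf1 probes and in Ppp2r1b_R 1 of 3 Ehmt2 probes was called lower, each undetected on 3 of 3 arrays without Dox, and the other probes of these genes were not called. These counts, 0% to 4% of the list, lie near or below the shares of all probes on withdrawal, and the list's median changes lay between -0.02 and 0.02 in all 5 clones.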

How the data were processed

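Illumina BeadChip arrays of 30 RNA samples were used, 3 for each of 10 conditions. Per the file headers the authors deposited, for each of 25697 probes, a signal intensity with background subtracted but not normalized between arrays, and a detection p-value. The submitters' processing notes name lumi; its settings are not given in the sources used here. Spreadsheet date conversion had altered 46 and 14 detection p-values of 2 arrays, which were turned back or taken from the nearest signal; none belonged to a gene reported here.

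Signals were background-corrected and quantile-normalized with neqc (limma 3.58.1, R 4.3.3, offset 16). The 15151 probes detected (p below 0.05) on 3 arrays or more entered 1 limma fit with 10 condition means and 20 residual degrees of freedom; the Benjamini-Hochberg adjustment ran over all tested probes of a contrast. A call needed an adjusted p below 0.05 together with a change of 1.5-fold or more. Where a probe was detected on no array of one group, a bound replaces the fold: the mean of the detected group against the other group's mean, with each array raised to its lowest detected signal. The precision is limited by the number of arrays.

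Members and lists were chosen with earlier results of these data known. The text names all members, the 3 probes most like each, and up to 4 called genes per list with the largest mean change over the 4 targeted clones. Replicate numbers showed no clear pairing of the samples (deviations of same-numbered arrays correlated between -0.084 and 0.131, 1 of 15 pairs over 0.1). With 3 arrays per condition this check cannot exclude pairing. Alternatives were no background correction, median scaling, offsets of 50 and 200, other detection filters, only the arrays compared, a replicate block, other fold limits, the methods' t-test per probe, leaving out each array, and, added after the data were seen, leaving out the arrays labelled Chek1_R. Arrays were simulated with 200 of 15151 probes changed by 1 on the log2 scale. For withdrawal 94% were recovered with 3 false calls in Bub1b_R and 94% with 6 in Ppp2r1b_R. For Ppm1g_R against Control_R without Dox it was 97% with 4, and for the change in Bub1b_R minus that in Control_R 79% with 8. In the simulation for Ppm1g_R the clones had equal means, so it held no difference of clone, array set or submission.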

Additional observations from a re-analysis of the deposited data

Results flagged for a closer look

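The change on Dox withdrawal of 2 genes differed among the 5 clones by limma's F-test with Benjamini-Hochberg adjustment. The same test was passed by 30.6% of all tested probes. For Dazl the adjusted p was 9.74e-05, with a change of 0.21 in Control_R, -0.50 in Bub1b_R and at least 1.57-fold lower levels in Ppp2r1b_R, where the probe was not well above background without Dox. For Dppa3 it was 4.07e-07, with changes from -0.78 in Ppp2r1b_R to 0.21 in Ppm1g_R. Both passed with each of the 30 arrays left out in turn. The causes were not tested.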

How the results depend on the processing

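As reported, leaving out Dmrtc2 in the targeted clones, the calls numbered 2 on withdrawal, 8 against Control_R without Dox, 10 with Dox, 5 for the change minus that in Control_R, 2 by the F-test and 45 in the wider lists. Median scaling gave 6 with Dox. An offset of 50 gave 1 on withdrawal, 5 with Dox and 25 in the wider lists. An offset of 200, which compresses low signals, gave 1 on withdrawal, 0 without Dox, 1 with Dox, 1 for the change minus that in Control_R and 9 in the wider lists, while the limma adjusted p of the 8 reported calls without Dox was at most 0.00108. A limit of 2-fold left 0 on withdrawal, 4 without Dox, 1 with Dox, 0 for the change minus that in Control_R and 3 in the wider lists, and no fold limit gave 6 on withdrawal and 124 in the wider lists. Without the arrays labelled Chek1_R, a choice made after seeing the data, the wider lists had 26 calls, as 19 of the 45 were of that clone. With the replicate block the counts were 2, 8, 10, 5, 2 and 45 in the order first given, and the replicate numbers showed no clear pairing. Leaving out 1 array at a time gave 2 to 3, 7 to 8, 9 to 11, 4 to 6, 2 to 3 and 43 to 48 calls in that order. The F-test of Ddx4 passed without Ppp2r1b_R +Dox replicate 2 (limma adjusted p = 0.0174).

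Of 1305 single values under alternatives, with Dmrtc2 left out as above, 1174 kept direction and side of the threshold, 68 no longer passed, 20 newly passed and 43 changed sign, 0 of these with a call on either side. Changes of sign came with no background correction for Tex101 on withdrawal in Control_R (0.0125) and in Ppp2r1b_R against Control_R without Dox (-0.13), and with median scaling for Tex101 on withdrawal in Bub1b_R (-0.005) and Dppa3 in Ppm1g_R minus Control_R (-0.11). Those at higher offsets were Tex101 in Ppp2r1b_R minus Control_R (0.0022 at 50 and 0.003 at 200) and Ddx4 in Ppm1g_R minus Control_R (0.0062 at 200). With 1 array left out, Tex101 on withdrawal ranged from -0.28 to 0.13 in Chek1_R, -0.24 to 0.23 in Ppp2r1b_R, -0.0625 to 0.16 in Bub1b_R and -0.15 to 0.0427 in Control_R. Minus Control_R it ranged from -0.25 to 0.16, -0.20 to 0.26 and -0.0312 to 0.19 in the first 3 of these. Against Control_R it ranged from -0.0515 to 0.17 in Ppm1g_R with Dox, and without Dox from -0.0197 to 0.44 in Ppp2r1b_R and -0.16 to 0.0181 in Bub1b_R. Ddx4 ranged from -0.0596 to 0.35 on withdrawal in Ppp2r1b_R and from -0.13 to 0.0757 in Ppm1g_R minus Control_R, and Dppa3 from -0.0572 to 0.12 in the latter. The cause was not tested. Ddx4 and Tex101 were detected on 17 and 7 of 30 arrays, which limits what their values show.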
